A study of Homo sapiens with 3 samples.

Results

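The genes described here encode glycoproteins, laminin chains and proteoglycans of the extracellular matrix in TC32, an established Ewing sarcoma cell line. They were chosen by name as a list of 45 genes, and all 45 were found among the 22713 gene names of the deposited tables. Of the 3 RNA-seq libraries, 1 came from control cells, labelled wild type (WT), and 1 from cells with knockdown of EWS-FLI1, the fusion oncoprotein of Ewing sarcoma. The other library came from cells treated with YK-4-279 at 3 µM for 15 h, a small molecule known as an inhibitor of EWS-FLI1 that keeps DHX9, an RNA helicase, from binding the fusion. DMSO is named as the vehicle. The labels do not say what the control cells were given (vehicle, a hairpin or nothing) or how long the knockdown lasted. The knockdown values were headed dEF and the sample titled shEF, and the group was taken from the genotype label. All cells were cultured in RPMI medium with 10% fetal bovine serum.

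The matrix is built from a few kinds of secreted protein. Fibronectin and related adhesive glycoproteins link cells to fibres, fibrillins and latent TGF-beta binding proteins form microfibrils, and small leucine-rich proteoglycans sit on collagen fibrils. Laminins are trimers of an alpha, a beta and a gamma chain that polymerise into the basement membrane, where nidogens, perlecan and agrin bind them. Matricellular proteins such as SPARC, tenascin-C and the thrombospondins change how cells hold to the matrix more than they bear load. In Ewing sarcoma, EWS-FLI1 is known to hold many mesenchymal genes down.

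Levels are FPKM (fragments per kilobase of transcript, relative to sequencing depth), multiplied by 0.421 for the control, 1.18 for the knockdown and 1.92 for the YK-4-279 library. These factors place the median of the 17160 names above 0 in every library on a common scale. A ratio below is a difference of log2(scaled FPKM + 1), which understates the change of scarce genes. A fold is 2 to the power of that ratio. It compares levels with 1 added, so it is smaller than the quotient of the levels printed. Higher or lower means an absolute log2 ratio of at least 1, a 2-fold difference. There was 1 library per group, so no test was possible and these words describe the libraries alone. Standard errors (SE) come from estimated fragment numbers and cover counting error only. They apply to levels with 1 added, so a library in which a gene is scarce adds little to them. A small SE therefore does not mean that a scarce level is well measured. Names with a mean scaled FPKM of at least 1 were compared, 9593 in all, and 25 of the 45 matrix genes were among them.

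The target of the knockdown was checked first. FLI1, whose sequence forms the DNA-binding end of the fusion, had 27.8 scaled FPKM in control cells, 1.75 after knockdown and 15.9 with YK-4-279. Over the compared names the median log2 ratio was -0.52 in the knockdown library and -0.39 with YK-4-279, so most genes lay somewhat below the control on this scale. When the scale was set instead on the 9883 names with a mean deposited FPKM of at least 1, a choice made after seeing the data, these medians were 0.0 and 0.031. Changes of call among the matrix genes under that scale are given beside each gene, and those of the other lists as counts. Ratios in the knockdown library also moved with level and length. Over 5 equal groups ranked by level with YK-4-279, the median ran from 0.38 in the scarcest to -1.62 in the most abundant, and over 5 groups ranked by transcript length from -0.99 in the shortest to -0.069 in the longest. Of the compared matrix genes, 11 lay in the longest group and 10 in the scarcest, and the part of either trend in their ratios was not tested. With YK-4-279 the medians by length lay between -0.43 and -0.35.

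Most of the matrix genes that could be compared were higher after knockdown of EWS-FLI1. Of the 25, 22 were higher, 2 were lower and 1 was neither, with a median log2 ratio of 3.00. Among all compared names 9.79% were higher and 34.8% were lower. SPARC, FN1, EFEMP1 and MGP had ratios between 6.25 and 6.50. The order of the ratios depends on the pseudocount: with 0.1 in place of 1, MGP had 8.78, EFEMP1 8.71, THBS1 8.16 and PTX3 8.08, ahead of FN1 at 7.23 and SPARC at 6.42. The lower genes were DCN and MFAP4, and LUM lay between. With the scale set on the names of at least 1 deposited FPKM, 23 were higher and 1 was lower, against 18.1% and 17.6% of all names. Of single genes, LUM passed the threshold there and MFAP4 did not.

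With YK-4-279 the matrix genes moved less. Of the 25, 7 were higher, 1 was lower and 17 were neither, with a median of 0.39, where 1.82% of all compared names were higher and 8.4% were lower. MGP, FN1, TNC, SPARC, TGFBI and EFEMP1 were higher, and PTX3 stood at the threshold. DCN was the lower gene, also at the threshold, and was not lower on the other scale, where 7 genes were higher and 0 lower against 2.73% and 1.74% of all names. The count depends on the processing. It was 12 higher with a pseudocount of 0.1, 16 higher and 0 lower after centring the deposited ratios on their median, and 4 higher and 9 lower on deposited values, where 92.0% of all names were lower. The pseudocount of 0.1 added THBS1, FBN1, EFEMP2, NID1 and VCAN to the higher genes. Both comparisons use the same control library, so their values are only set side by side.

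A gene scarce in the control can enter the comparison only through a library in which it is high. The 11 matrix genes with at least 1 scaled FPKM in the control do not depend on that. Among them 8 were higher and 2 lower after knockdown, and 1 was higher and 1 lower with YK-4-279. All names chosen in the same way were higher in 5.71% and lower in 37.3% of cases after knockdown, and in 0.711% and 9.04% with YK-4-279. In all, 31 of the 45 genes reached 1 scaled FPKM in the knockdown library, 21 did with YK-4-279 and 11 in the control. Of all 22713 names, 9762 reached that level in the knockdown library and 8998 in the control. The number with YK-4-279 was not taken.

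**Figure D1:**
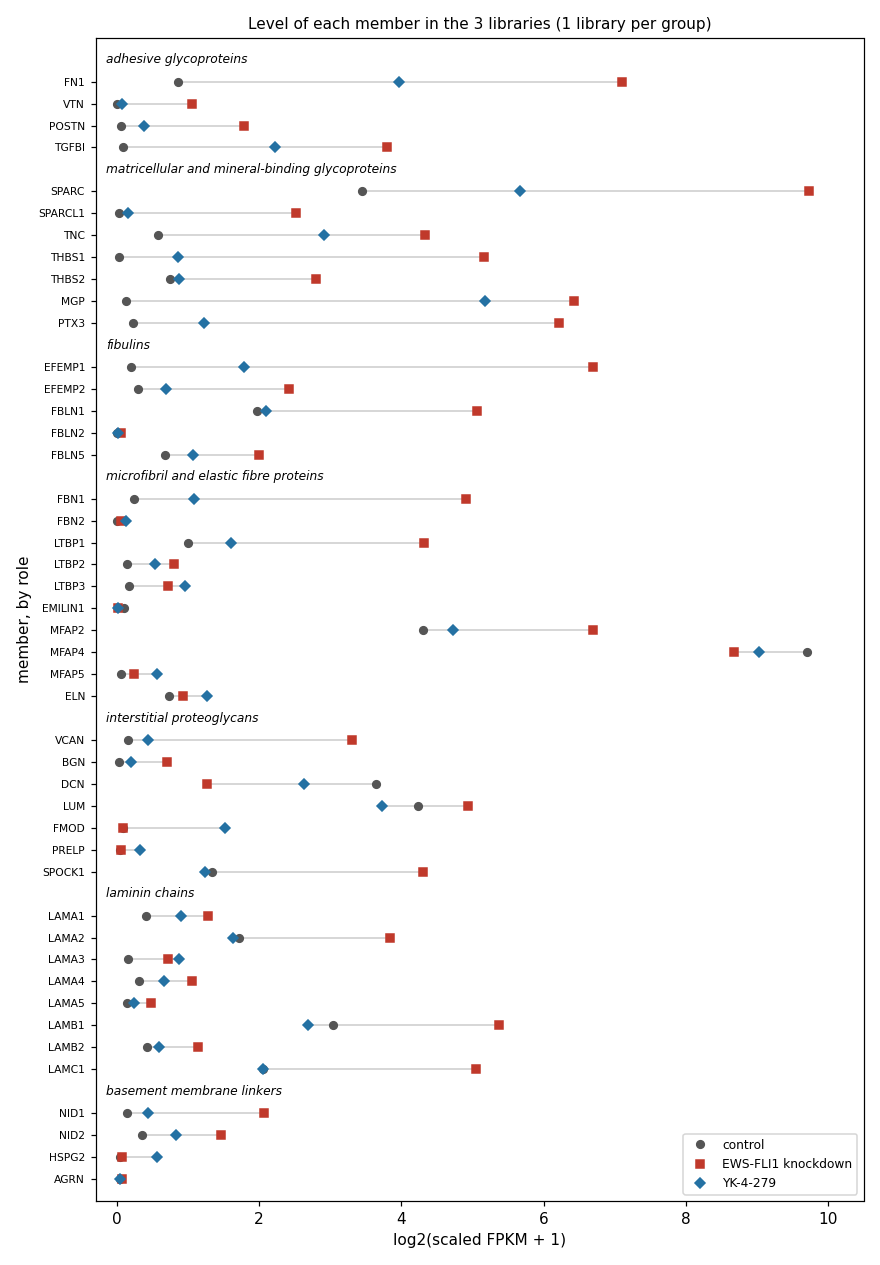
Level of all 45 matrix genes as log2(scaled FPKM + 1) on the horizontal axis, grouped by role on the vertical axis, with 1 point per library (grey circles, control; red squares, EWS-FLI1 knockdown; blue diamonds, YK-4-279). The knockdown point lies farthest to the right for 23 of the 25 compared genes, while MFAP4 and DCN are highest in the control. The share among all compared names was not taken. Only 11 of the 25 had at least 1 scaled FPKM in the control, and the others passed the filter through a library in which they were higher.

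Sequences are shown upstream of the genes that passed 2-fold over the control in both treated libraries. Passing is relative to the control and does not mean a high level. PTX3 was scarce in the inhibitor library, at 1.34 scaled FPKM, and its log2 ratio of 1.00 there stood at the threshold. RefSeq entries on GRCh38.p14 matched 34 of the 45 genes, including 5 of the 7 that passed in both libraries. MGP and EFEMP1 are the others. Each run is the 250 bases before the annotated start, 5′ to 3′ on the strand of the gene, with matches to GGAAGGAA (a tandem ETS core), TGANTCA (AP-1), GGAATG (TEAD), TATAAA and GGGCGG (GC box) on either strand in capitals. FN1 lies at chr2:215436069-215436318 on the minus strand, TGFBI at chr5:136028738-136028987 on the plus strand and SPARC at chr5:151686916-151687165 on the minus strand. TNC lies at chr9:115118158-115118407 on the minus strand and PTX3 at chr3:157436600-157436849 on the plus strand.
FN1: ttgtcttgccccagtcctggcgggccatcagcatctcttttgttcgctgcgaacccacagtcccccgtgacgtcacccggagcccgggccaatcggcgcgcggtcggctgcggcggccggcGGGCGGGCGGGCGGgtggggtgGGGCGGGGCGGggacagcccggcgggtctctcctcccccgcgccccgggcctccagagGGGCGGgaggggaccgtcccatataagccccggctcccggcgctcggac
TGFBI: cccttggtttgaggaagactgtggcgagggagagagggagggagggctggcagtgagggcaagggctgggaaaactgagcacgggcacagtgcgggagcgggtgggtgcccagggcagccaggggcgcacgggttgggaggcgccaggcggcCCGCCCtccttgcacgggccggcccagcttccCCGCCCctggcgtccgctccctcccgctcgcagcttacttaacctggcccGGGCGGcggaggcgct
SPARC: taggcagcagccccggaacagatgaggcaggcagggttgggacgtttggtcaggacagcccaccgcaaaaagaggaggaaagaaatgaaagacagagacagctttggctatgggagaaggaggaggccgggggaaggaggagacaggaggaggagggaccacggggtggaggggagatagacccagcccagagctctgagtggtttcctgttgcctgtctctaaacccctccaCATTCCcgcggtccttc
TNC: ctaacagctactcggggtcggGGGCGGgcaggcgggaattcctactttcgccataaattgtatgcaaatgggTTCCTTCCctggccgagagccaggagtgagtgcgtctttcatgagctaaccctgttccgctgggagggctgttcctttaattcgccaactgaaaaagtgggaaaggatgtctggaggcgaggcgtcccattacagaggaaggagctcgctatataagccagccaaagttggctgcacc
PTX3: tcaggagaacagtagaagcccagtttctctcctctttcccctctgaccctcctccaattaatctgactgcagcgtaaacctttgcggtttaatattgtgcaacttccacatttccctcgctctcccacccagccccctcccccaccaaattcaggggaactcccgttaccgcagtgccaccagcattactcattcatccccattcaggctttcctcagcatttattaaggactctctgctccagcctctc
The 5 sequences do not share a motif of this set. FN1 held 6 GC boxes, some of them overlapping, and TGFBI held 3. SPARC held 1 TEAD match, TNC held 1 GC box and 1 tandem ETS core, and PTX3 held none of the motifs. GC content was 76.4% for FN1, 72.8% for TGFBI, 59.2% for SPARC, 54.8% for TNC and 51.6% for PTX3, where the median over 27305 promoters was 58.0% and that over the 34 matrix promoters was 68.4%.

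Over all 34 matrix promoters the TEAD match stood in 7, or 20.6%, against 11.9% of all promoters of this length. Those 7 were FBN1, LAMA2, PRELP, SPARC, THBS1, THBS2 and VTN. The tandem ETS core stood in 4 (FBLN5, FBN2, LAMB2 and TNC), or 11.8% against 2.99%, and the AP-1 match in 3 (LAMA3, MFAP2 and POSTN), or 8.82% against 6.60%. GC boxes stood in 64.7% against 42.3%, and TATAAA in 11.8% against 11.1%. Among promoters of the compared names the shares were 9.55% for TEAD, 2.73% for the tandem ETS core, 3.81% for AP-1, 66.9% for the GC box and 5.27% for TATAAA. A match of letters is a description of the sequence and was not tested against the ratios.

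Of the 4 adhesive glycoproteins 2 were compared, FN1 and TGFBI, and both were higher in both treated libraries. Both lay below 1 scaled FPKM in the control. FN1, which encodes fibronectin, had 0.809 scaled FPKM in control cells, 137 after knockdown and 14.6 with YK-4-279. With 1 added to each level, it was 76.1-fold higher after knockdown (log2 ratio 6.25, SE 0.043) and 8.64-fold higher with YK-4-279 (3.11, SE 0.046). TGFBI, an integrin-binding protein induced by TGF-beta, had 0.0599, 12.9 and 3.69. Its log2 ratios were 3.71 (SE 0.046) and 2.14 (SE 0.064), on a control value of about 6 estimated fragments. Fibronectin and TGFBI thus kept the same order of libraries, control below YK-4-279 below knockdown. POSTN, periostin, was too scarce to be compared, with 0.0358, 2.46 and 0.294. VTN, vitronectin, was at 0 in the control table, with 1.09 after knockdown and 0.047 with YK-4-279, so no fold is given.

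All 7 matricellular and mineral-binding genes were compared, and all 7 were higher after knockdown, as were 9.79% of all compared names. Only SPARC had at least 1 scaled FPKM in the control. The others entered the comparison through a library in which they were higher, so their count does not stand apart from the filter. SPARC, a collagen-binding glycoprotein, had 9.89 scaled FPKM in control cells, 854 after knockdown and 50.1 with YK-4-279. That made it 78.5-fold higher after knockdown (6.30, SE 0.036), the most abundant of the 45 genes there, and 4.69-fold higher with YK-4-279 (2.23, SE 0.039). MGP, matrix Gla protein, an inhibitor of calcification, had 0.0929, 84.8 and 35.1. Its log2 ratios were 6.29 (SE 0.059) and 5.05 (SE 0.064), and the second was the highest of any compared matrix gene with YK-4-279. The control value of MGP rests on about 5 estimated fragments. TNC, tenascin-C, an anti-adhesive hexamer, had 0.489, 19.1 and 6.50, with ratios of 3.75 (SE 0.044) and 2.33 (SE 0.049).

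The other matricellular genes were high mainly in the knockdown library. PTX3, a pentraxin of innate immunity that also serves the hyaluronan matrix, had 0.170 scaled FPKM in control cells, 73.1 after knockdown and 1.34 with YK-4-279. Its ratio was 5.99 (SE 0.063) after knockdown and 1.00 (SE 0.10) with YK-4-279, where the interval of 0.81 to 1.20 spans the threshold. The control value of PTX3 rests on about 12 estimated fragments. THBS1, thrombospondin 1, an activator of latent TGF-beta, had 0.0229, 34.9 and 0.818, with ratios of 5.13 (SE 0.018) and 0.83 (SE 0.042) on about 7 control fragments. With a pseudocount of 0.1 the YK-4-279 ratio of THBS1 was 2.90, past the threshold. The related THBS2 was more even, at 0.672, 5.95 and 0.834, with ratios of 2.06 (SE 0.060) and 0.13 (SE 0.070). SPARCL1, a relative of SPARC known from vessels and brain, had 0.0185, 4.71 and 0.118. Its ratio after knockdown was 2.49 (95% counting interval 2.39 to 2.59), but the control level stands on only about 2 fragments. THBS1 and PTX3 therefore stood far below their knockdown level with YK-4-279, whereas MGP and TNC came closer to it.

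Fibulins bridge elastic fibres and basement membranes. EFEMP1, fibulin-3, had 0.147 scaled FPKM in control cells, 103 after knockdown and 2.44 with YK-4-279. With 1 added to each level, it was 90.7-fold higher after knockdown (6.50, SE 0.061) and 3.00-fold higher with YK-4-279 (1.58, SE 0.096). The control value of EFEMP1 rests on about 10 estimated fragments. FBLN1, fibulin-1, a partner of fibronectin and laminin, was already present in the control at 2.92 and reached 32.4 after knockdown (3.09, SE 0.065), but only 3.27 with YK-4-279 (0.12, SE 0.083). EFEMP2, fibulin-4, which recruits lysyl oxidase to elastin, had 0.226, 4.36 and 0.619. Its ratio after knockdown was 2.13 (SE 0.086), on about 17 control fragments. FBLN5, fibulin-5, had 0.596, 2.98 and 1.09, with 1.32 (SE 0.10) after knockdown and 0.39 (SE 0.11) with YK-4-279. FBLN2 was at 0 in the control table and at no more than 0.0373 elsewhere.

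Of the 10 microfibril and elastic fibre genes, 4 were compared. FBN1, fibrillin-1, the backbone of microfibrils, had 0.179 scaled FPKM in control cells, 29.1 after knockdown and 1.12 with YK-4-279, with ratios of 4.68 (SE 0.027) and 0.85 (SE 0.041). LTBP1, which stores latent TGF-beta on fibrillin, had 1.01, 19.0 and 2.03, with ratios of 3.32 (SE 0.057) and 0.59 (SE 0.070). MFAP2, a small microfibril glycoprotein, had 18.7, 102 and 25.5, with ratios of 2.39 (SE 0.050) and 0.43 (SE 0.060). These 3 genes were higher in the knockdown library and neither higher nor lower with YK-4-279. For FBN1 the second call depends on the pseudocount. With 0.1 in place of 1, the YK-4-279 ratio was 2.13 for FBN1, 0.94 for LTBP1 and 0.45 for MFAP2. MFAP4, a fibrinogen-like protein that binds elastin and collagen, was by far the most abundant matrix gene of the control at 836, and had 407 after knockdown and 523 with YK-4-279. It was lower after knockdown (-1.04, SE 0.0096), but the ratio was -0.37 on the scale set on names of at least 1 deposited FPKM and 0.22 when libraries were scaled on their total FPKM. Its ratio with YK-4-279 was -0.68 (SE 0.0093).

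The remaining microfibril genes had a mean below 1 scaled FPKM and were not compared. ELN, which encodes elastin itself, had 0.667, 0.907 and 1.40 scaled FPKM in the control, knockdown and YK-4-279 libraries. LTBP2 and LTBP3 reached at most 0.743 and 0.937, and MFAP5 at most 0.473. EMILIN1 stood at 0.0697 in the control at 0.00996 after knockdown and at 0.0108 with YK-4-279. FBN2, fibrillin-2, was listed at 0 in the control and reached 0.0905 with YK-4-279.

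The interstitial proteoglycans had no common direction. VCAN, versican, a large hyaluronan-binding chondroitin sulfate proteoglycan, had 0.118 scaled FPKM in the control, 8.91 after knockdown and 0.353 with YK-4-279, with ratios of 3.15 (SE 0.027) and 0.28 (SE 0.034). SPOCK1, testican-1, a proteoglycan related to SPARC, had 1.51, 18.8 and 1.36, with ratios of 2.98 (SE 0.057) and -0.091 (SE 0.073). DCN, decorin, a leucine-rich proteoglycan that binds collagen and TGF-beta, went the other way. It had 11.4 in the control, 1.39 after knockdown and 5.22 with YK-4-279. With 1 added to each level, it was 5.20-fold lower after knockdown (-2.38, SE 0.083). With YK-4-279 its ratio was -1.0 (SE 0.072, interval -1.14 to -0.86), or -0.54 on the scale of names with at least 1 deposited FPKM.

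LUM, lumican, the leucine-rich proteoglycan next to DCN in RefSeq's gene order, did not follow it. It had 17.7 scaled FPKM in the control, 29.5 after knockdown and 12.3 with YK-4-279, with ratios of 0.70 (SE 0.038) and -0.50 (SE 0.046). On the other scale its ratio after knockdown was 1.34, above the threshold. The other leucine-rich members were scarce. BGN, biglycan, had 0.0164, 0.635 and 0.149, and PRELP did not exceed 0.256. FMOD, fibromodulin, had 0.0552, 0.0568 and 1.87, so that it was seen mainly with YK-4-279, at about 259 fragments against 7 and 9 in the control and knockdown libraries. Its mean of under 1 scaled FPKM kept it out of the comparison.

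**Figure D2:**
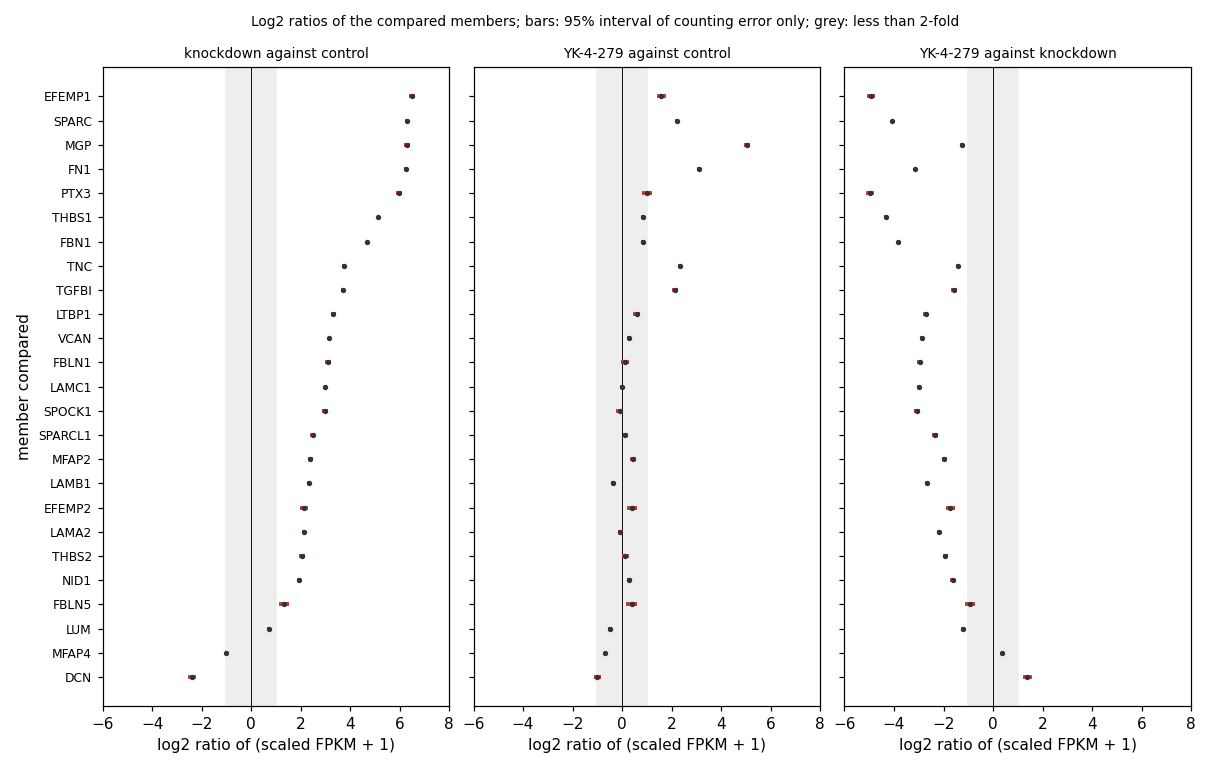
Log2 ratio of (scaled FPKM + 1) on the horizontal axis for the 25 compared matrix genes on the vertical axis, in the 3 comparisons, with red bars for the 95% interval of counting error only and a grey band for less than 2-fold. In the first panel 22 genes lie right of the band, in the second 7 do, and in the third 22 lie left of it.

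Of the 8 laminin chains 3 passed the filter on mean level. LAMB1, the beta-1 chain, had 7.25 scaled FPKM in the control, 40.3 after knockdown and 5.43 with YK-4-279, with ratios of 2.32 (SE 0.035) and -0.36 (SE 0.047). LAMC1, the gamma-1 chain shared by most laminins, had 3.15, 32.2 and 3.13, with ratios of 3.00 (SE 0.038) and -0.0075 (SE 0.050). LAMA2, the alpha-2 chain of muscle and nerve, had 2.28, 13.3 and 2.10, with ratios of 2.12 (SE 0.039) and -0.078 (SE 0.049). These 3 chains, which together make the laminin of muscle basement membrane, were the only laminin genes compared. Each was higher after knockdown and close to its control level with YK-4-279. The other alpha chains, LAMA1, LAMA3, LAMA4 and LAMA5, reached at most 1.43, 0.822, 1.07 and 0.395, and LAMB2 at most 1.20. These maxima were after knockdown, except for LAMA3, which had 0.648 there and its maximum with YK-4-279. In the control the same chains had 0.331, 0.117, 0.243, 0.102 and 0.344, so the scarce chains also stood above the control after knockdown. LAMA5 was read from a locus whose name also holds a microRNA gene.

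The proteins that tie laminin to the rest of the basement membrane were scarce. NID1, nidogen-1, which links laminin to type IV collagen, had 0.107 scaled FPKM in the control, 3.20 after knockdown and 0.356 with YK-4-279, and was the only linker compared (1.93, SE 0.047 after knockdown and 0.29, SE 0.050 with YK-4-279). Its relative NID2 had 0.278, 1.76 and 0.772. HSPG2, perlecan, had 0.0329, 0.0527 and 0.482, with about 289 fragments with YK-4-279 against 17 in the control and 37 after knockdown. AGRN, agrin, did not exceed 0.0463. Perlecan and agrin were thus below 1 scaled FPKM in all 3 libraries.

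The order of abundance, which FPKM allows because it is per length, differed between libraries. In the control MFAP4 was followed by MFAP2, LUM, DCN and SPARC, with 18.7 scaled FPKM for the second and 9.89 for SPARC. In the knockdown library SPARC came first at 854, then MFAP4 at 407, FN1 at 137, EFEMP1 at 103 and MFAP2 at 102. With YK-4-279 the order was MFAP4 at 523, SPARC at 50.1, MGP at 35.1, MFAP2 at 25.5 and FN1 at 14.6. Values of at least 10 scaled FPKM were reached by 4 matrix genes in control cells, 18 after knockdown and 6 with YK-4-279. The shares of all names at that level were not taken, so these 3 counts have no background. With 1 library each, neighbours in these orders cannot be separated beyond counting error.

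Set directly against the knockdown library, YK-4-279 had lower levels for 22 of the 25 compared genes and a higher level for DCN alone (1.38, SE 0.090), with a median of -2.35. Among all compared names 12.3% were lower and 19.1% were higher. PTX3 and EFEMP1 stood at -4.98 (SE 0.081) and -4.92 (SE 0.077), THBS1 at -4.31 (SE 0.042) and SPARC at -4.06 (SE 0.017). MGP, TNC and TGFBI were closer, at -1.25 (SE 0.036), -1.42 (SE 0.032) and -1.56 (SE 0.063). FBLN5 at -0.93 and MFAP4 at 0.36 were neither. On the scale of names with at least 1 deposited FPKM, FBLN5 stood at -1.07, which made 23 lower and 1 higher against 15.1% and 15.9% of all names. Among the 31 genes with at least 1 scaled FPKM in the knockdown library, 23 were lower and 1 higher, against 13.1% and 17.1% of names so chosen. That choice uses the library the genes are then set against, which favours lower calls, so it is not a separate check. Genes that passed the mean filter through the knockdown library share this limit. VCAN, at 0.118, 8.91 and 0.353 in the control, knockdown and YK-4-279 libraries, is an example.

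**Figure D3:**
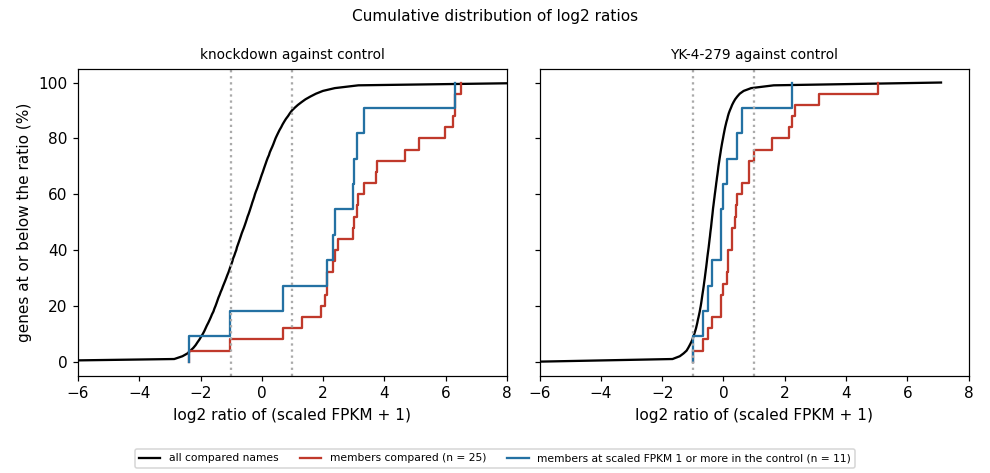
Cumulative percent of genes (vertical axis) at or below each log2 ratio of (scaled FPKM + 1) (horizontal axis) for all 9593 compared names (black), the 25 compared matrix genes (red) and the 11 with at least 1 scaled FPKM in the control (blue), with dotted lines at 2-fold. The red median is 3.00 after knockdown and 0.39 with YK-4-279, and the black medians are -0.52 and -0.39.

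Other genes of the matrix were read from 4 further lists, of which 47 of 135 genes could be compared. After knockdown 28 were higher and 1 lower, with a median of 1.23, against the 9.79% and 34.8% of all names. By list, 11 of 16 further glycoproteins, 4 of 5 further proteoglycans, 8 of 13 matrix receptors and 5 of 13 enzymes of glycosaminoglycan synthesis were higher. Of the genes of these lists with at least 1 scaled FPKM in the control, 31 in all, 14 were higher and 1 lower. Their median was 0.609, and all names chosen in the same way were higher in 5.71% and lower in 37.3% of cases. In the order of lists above, 5 of 10, 1 of 1, 4 of 8 and 4 of 12 were higher. The highest of the 47 were SRPX2, a sushi-repeat protein, at 4.44 (SE 0.045), ITGB5, the integrin beta-5 chain that pairs with alpha-v, at 3.49 (SE 0.058), and PXDN, peroxidasin, which cross-links type IV collagen, at 3.29 (SE 0.047). The lower gene was GLCE, the epimerase of heparan sulfate synthesis, at -1.16, or -0.57 on the scale of names with at least 1 deposited FPKM, where 33 were higher and 0 lower. Of the receptors for fibronectin, ITGA5 had 0.893, 7.49 and 1.66 scaled FPKM in the control, knockdown and YK-4-279 libraries, and ITGAV had 1.92, 17.2 and 2.25. These 2 were named after their values were seen.

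With YK-4-279 the further lists had 4 genes higher, 1 lower and 42 neither, and a median of -0.031. Of all compared names 1.82% were higher and 8.4% lower, with a median of -0.39. On the scale of names with at least 1 deposited FPKM, 5 were higher and 0 lower, with ITGB5 at 1.07 against 0.87 on the main scale. SRGN, serglycin, a proteoglycan of secretory granules, was highest at 2.02 (SE 0.13), then SRPX2 at 1.67 (SE 0.055) and SDC2, the membrane heparan sulfate proteoglycan syndecan-2, at 1.65 (SE 0.065). ITGA1, the collagen-binding integrin alpha-1, was lower at -1.22, or -0.74 on that other scale. Of the 31 genes of these lists with at least 1 scaled FPKM in the control, 1 was higher and 1 lower, against 0.711% and 9.04% of names so chosen. Against the knockdown library SRGN alone was higher with YK-4-279, at 2.32, and 29 were lower, led by NPNT at -2.92, SRPX2 at -2.77 and GPC5 at -2.68. Of all compared names 19.1% were higher and 12.3% lower, and on the other scale 32 of the 47 were lower. Among the 58 listed genes with at least 1 scaled FPKM in the knockdown library, 31 were lower and 0 higher, against 13.1% and 17.1% of names so chosen. A choice by the knockdown level favours lower calls against that library, so this is not a separate check.

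**Figure D4:**
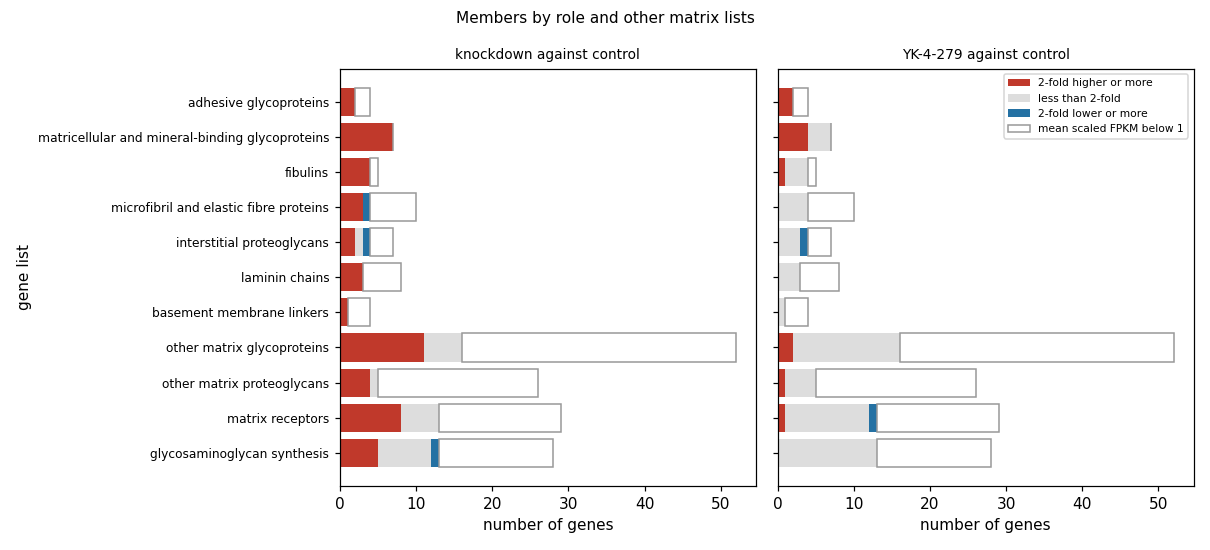
Number of genes (horizontal axis) per role group of the matrix genes and per further list (vertical axis) that were at least 2-fold higher (red), less than 2-fold different (grey), at least 2-fold lower (blue) or below a mean of 1 scaled FPKM (white), for knockdown and YK-4-279 against control. All 7 matricellular genes are red after knockdown and 4 of 7 with YK-4-279, and none of the 3 compared laminin chains is red with YK-4-279. Of the 7, only SPARC had at least 1 scaled FPKM in the control. Among all compared names 9.79% were higher after knockdown and 1.82% with YK-4-279.

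Markers of cell types were read beside these values. Of 8 Ewing sarcoma markers, 7 had at least 1 scaled FPKM in each library, and the summed level was 471 in the control, 92.9 after knockdown and 316 with YK-4-279. STEAP1 alone gave 230, 25.2 and 134 of these sums. After knockdown 6 of the 7 compared were lower, or 5 on the scale of names with at least 1 deposited FPKM. Of all names 34.8% were lower, or 17.6% on that scale. With YK-4-279 all 7 were neither, where 8.4% of all names were lower. Their median was -0.57, or -0.061 on that scale, against -0.39 and 0.031 for all names. CD99, the surface marker of this tumour, was listed at 0 at its 2 loci in all 3 libraries. Whether reads could be assigned to those loci was not tested, so the 0 is not taken as absent RNA. Fibroblast markers, 8 genes that include 3 collagen genes, summed to 26.7 in the control, 115 after knockdown and 46.3 with YK-4-279, and COL3A1 alone gave 91.5 of the sum after knockdown. Of the 6 fibroblast markers compared, 4 were higher and 1, S100A4 at -1.96, was lower after knockdown, where 9.79% and 34.8% of all names were. With YK-4-279 THY1 was higher and none was lower, against 1.82% and 8.4% of all names. On the scale of names with at least 1 deposited FPKM 3 were higher with YK-4-279, with COL3A1 at 1.05, S100A4 at 1.24 and THY1 at 2.25. Only 3 fibroblast markers had at least 1 scaled FPKM in the control. Of these, 2 were higher and 1 lower after knockdown, and none passed 2-fold with YK-4-279 on the main scale. All names so chosen were higher in 5.71% and lower in 37.3% of cases after knockdown, and in 0.711% and 9.04% with YK-4-279. None of the 8 was at 0, and their part in the matrix values was not tested. Endothelial markers summed to no more than 1.02 and blood cell markers to no more than 0.953 in any library. Epithelial markers summed to between 3.34 and 5.76, mostly KRT18, with KRT5 listed at 0 in all 3 libraries. In bulk samples such as these, fewer cells of a type and less RNA per cell cannot be told apart.

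**Figure D5:**
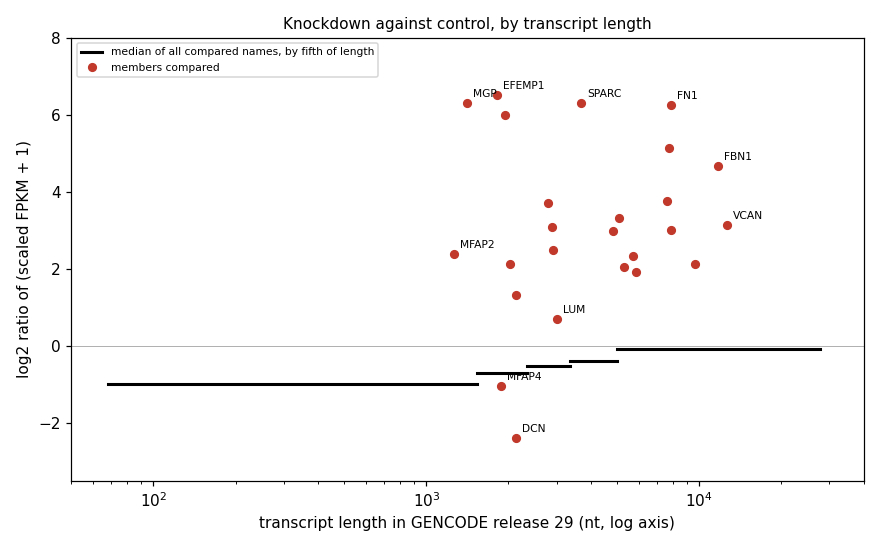
Log2 ratio of knockdown against control (vertical axis) for the 25 compared matrix genes (red points) by transcript length in nucleotides (horizontal log axis), with black lines for the median of all compared names in 5 equal groups of length. The black lines run from -0.99 to -0.069, and all points but those of MFAP4 and DCN lie above them.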

How the data were processed

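The 3 libraries were made from total RNA with a SMARTer cDNA kit, sonication and ligation-mediated PCR, per the labels' protocols. The authors deposited FPKM for 88434 loci per library, 24751 of them named. CASAVA 1.8.2, TopHat and Cufflinks 2.2.1 and build GRCh37 (hg19) are named in the submitters' processing notes. For annotation, filters and scaling between libraries: not given in the sources used here.

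Loci were summed per name, and a locus whose joined name held a listed gene was counted under that gene (1 locus among the 45). FN1 was the sum of more than 1 locus. Each library was scaled on its median ratio to the geometric mean, and 1 was added before log2. The values of 330 olfactory receptor genes gave the worth of 1 fragment in 1 kb, 0.0648 FPKM for control cells, 0.0174 for knockdown and 0.0125 for YK-4-279. Fragments per gene are approximate and rest on GENCODE release 29 lengths, found for 88.1% of compared names. The scaling was tested on simulated data in which a small part of the names changed and ratios had no built-in trend with level. It was not tested under shifts as broad as those after knockdown. Python 3.11.15, pandas 2.3.3, numpy 2.4.6 and scipy 1.17.1 were used.

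The genes and lists were chosen with earlier results of these data known. Genes are named where a ratio reached 2-fold or a level 10 scaled FPKM, and the others are given by level. Of the further lists the 3 highest and 3 lowest past 2-fold are named. The alternatives were other pseudocounts, scalings, filters, name matching and a fold of 4.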

Additional observations from a re-analysis of the deposited data

How the results depend on the processing

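No paired analysis was possible because each group has 1 library, and no library could be left out. The count of matrix genes higher after knockdown stayed between 16 and 25 under all alternatives but the filter on the control library, which left 8 of 11. With YK-4-279 the count of 7 higher genes was 12 with a pseudocount of 0.1, 4 with a pseudocount of 5, 4 on deposited values, 16 after centring deposited ratios on their median, and 1 of 11 with the filter on the control. The 1 lower gene with YK-4-279 (DCN) became 9 genes on deposited values, where the median of all names was -2.23, and 0 with a pseudocount of 5, centring, scaling on total FPKM, a fold of 4, or the scale of names with at least 1 deposited FPKM. The 2 lower genes after knockdown became 1 with centring, total FPKM, a fold of 4 and that last scale. MFAP4 after knockdown turned to 0.22 under scaling on total FPKM, the only sign change among 55 ratios past 2-fold. Against knockdown, the 1 gene higher with YK-4-279 became 0 with a pseudocount of 5, deposited values, total FPKM and a fold of 4, and 2 without a filter, and the 22 lower genes became 14 at a fold of 4. Depth limits the control most, where 7 of the 25 compared genes had under 20 estimated fragments.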

Other observations

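Of the 20 matrix genes too scarce to be compared, 11 had their highest scaled level after knockdown, 8 with YK-4-279 and 1 in the control. The shares among all scarce names were not taken, so these counts have no background. The 8 were FBN2, LTBP3, MFAP5, ELN, FMOD, PRELP, LAMA3 and HSPG2, named after their values were seen. FMOD and PRELP are neighbours in RefSeq's gene order, as are LUM and DCN. FMOD had 1.87 scaled FPKM with YK-4-279 and PRELP 0.256, against 0.0568 and 0.0368 after knockdown. FMOD would stand at a log2 ratio of 1.44 (SE 0.065) to the control. THY1, a fibroblast marker of the cell surface, also had its highest level with YK-4-279, at 4.05 scaled FPKM against 0.200 in the control and 0.0312 after knockdown.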
